A study of Mus musculus with 11 samples.

Results

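Interferon-stimulated genes were followed as a set of 39 mouse genes, chosen by name because interferon is known to raise their transcription, in sorted CD4 T cells of the spleen. Each of the 39 was found on 1 row of a deposited gene table by its gene symbol, and none was missing. Tests were run on the 20400 genes of that table with a single symbol, of which these are 39. The study set memory phenotype CD4 T cells against naive ones, in unmanipulated mice and in bone marrow chimeras whose T cells met MHC class II on either blood-derived or thymic cells, as the labels describe them. All mice were female C57BL/6.

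WM IMP, with 3 arrays, is the innate memory phenotype (IMP) population of chimeras in which CD45.1+ wild-type marrow was placed into lethally irradiated CD45.2+ MHCII-/- hosts. It was sorted by surface phenotype, high CD44 included, as well as CD45.1, TCRβ and CD4. WT IMP, with 2 arrays, carries the same high CD44 phenotype but comes from unmanipulated wild-type (WT) mice without a CD45 gate. MW naive, with 3 arrays, is the naive population, low in CD44, from the opposite chimeras, with CD45.2+ MHCII-/- marrow in lethally irradiated wild-type hosts, gated on CD45.2. WT naive, with 3 arrays, is the same phenotype from unmanipulated mice. The age of unmanipulated mice was 8 weeks, and chimeras were analysed 8 weeks after receiving marrow. The labels disagree on the CD45 allele of the MW hosts, 1 of them giving CD45.2, the donors' allele, in which case the gate would have kept cells of the host. The number of mice behind each array was not given in the sources used here, and purity after sorting was 92% to 99% over all samples.

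Interferons are secreted proteins that cells make on sensing microbes. Type I interferons act through a receptor of the subunits IFNAR1 and IFNAR2, and the kinases JAK1 and TYK2 then activate a complex with STAT2 and IRF9 that binds a DNA motif called the interferon-stimulated response element. Interferon gamma, which memory and effector CD4 T cells can secrete, acts through IFNGR1 and IFNGR2, JAK1 and JAK2, and its targets can carry a DNA motif called the gamma-activated site. The induced genes encode sensors of foreign nucleic acid, enzymes and GTPases that limit viruses, components of class I antigen presentation, and the factors of the pathway itself. T cells, including naive ones, express part of the set without infection.

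Each value is a log2 difference between an array and the average of the 3 WT naive arrays. Every gene thus averages 0 in WT naive, and neither a level nor a comparison of levels between genes can be given. The logarithm's base was not stated and was taken as 2, as is usual for the authors' method. Over all genes the array medians lay between -0.05 and 0.0029. As a check of the sort, Cd44 rose in IMP cells in both comparisons with naive cells. None of the 8 CD4 T cell markers passed the test between WT IMP and WT naive. All 8 lay below 0 there, with a median of -0.12 and a lowest difference of -1.08. Lat and Lck fell in WM IMP against MW naive and Cd5 in MW naive against WT naive. Markers of plasmacytoid dendritic cells, cells of the innate immune system that are known as rich sources of type I interferon and carry many interferon-stimulated genes, were higher in IMP arrays. Of 9 measured markers, 8 rose in both comparisons of IMP with naive cells. Their mean was 2.09 to 3.20 in WM IMP, 3.37 to 3.55 in WT IMP, -0.34 to -0.25 in MW naive and -0.22 to 0.28 in WT naive. The exception was Pacsin1, which lay between -0.48 and 0.49 in all 11 arrays. In WM IMP against MW naive and in WT IMP against WT naive, markers also rose for conventional dendritic cells (4 and 5 of 7), monocytes and macrophages (6 and 5 of 9), B cells (4 and 0 of 8), NK cells (3 and 2 of 6) and CD8 T cells (1 and 0 of 2), and none for neutrophils or erythroid cells. Labelling controls for poly-A RNA were high in 1 array of each group (WM IMP 2, WT IMP 1, MW naive 3 and WT naive 1), and results are given also without these 4 arrays.

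**Figure D1:**
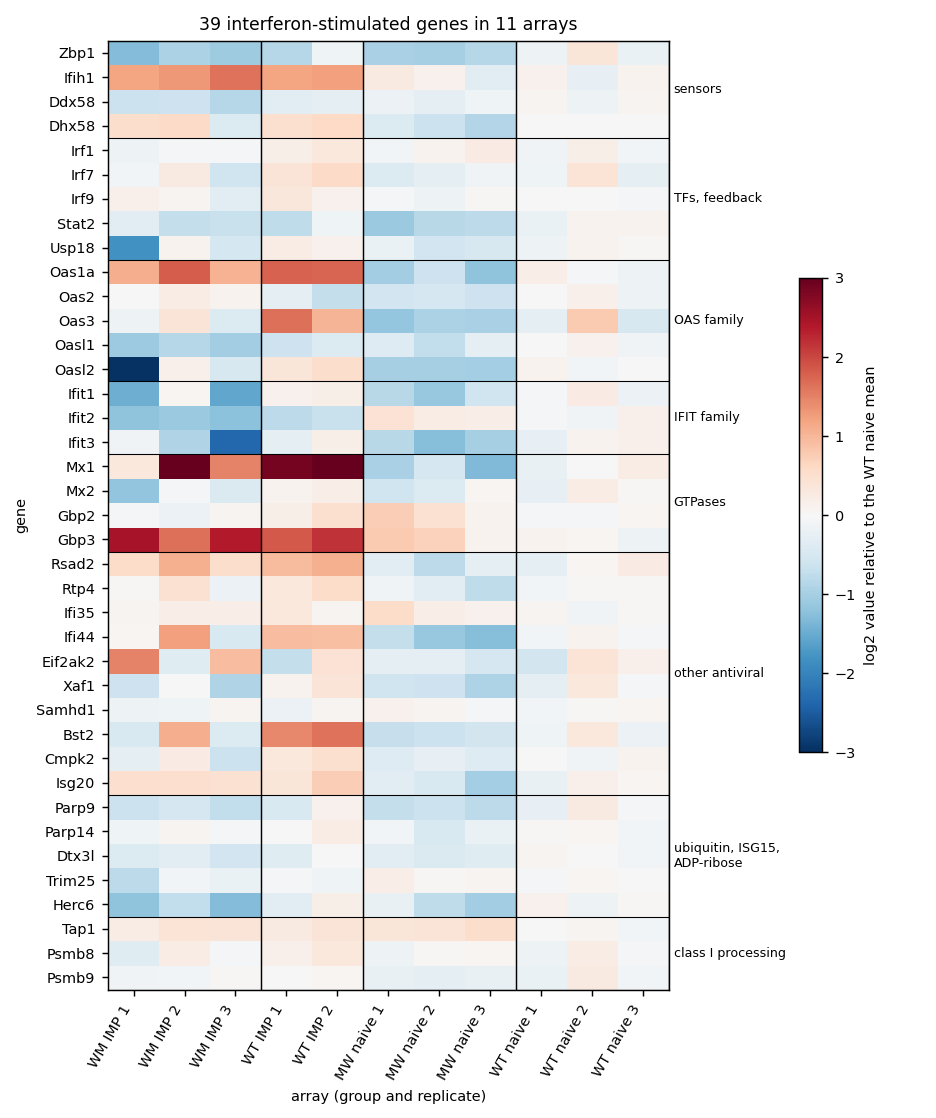
Log2 value relative to the WT naive mean (colour) for the 39 interferon-stimulated genes (rows, grouped by role) in each of the 11 arrays (columns, grouped by sorted population). Mx1, Oas1a, Gbp3 and Ifih1 are red in IMP columns, most of the MW naive columns are pale blue, and the 3 WM IMP columns differ among themselves in Oasl2, Ifit1, Ifit3 and Mx1.

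Promoters are shown for the 5 members with the greatest differences past the test that had an entry in the RefSeq promoter table and a core of the interferon-stimulated response element before the start. The core of Ifih1, whose difference lay above that of Oas3 and Rsad2, lies after the start and is not printed. The core was spelled GAAANNGAAA and searched on both strands, in the 250 bases before and 50 after each gene's start. It was present in 12 of the 30 members with an entry (40.0%) and in 3.99% of 27025 genes of the table. A gamma-activated site, spelled TTCNNNGAA and searched in the same windows, was present in 9 of the 30 (30.0%) and in 9.55% of all genes. The members with a core were Bst2, Ddx58, Eif2ak2, Gbp2, Gbp3, Ifih1, Ifit1, Ifit3, Oas1a, Oas3, Rsad2 and Stat2. The 250 bases before the start are printed 5′ to 3′ on the strand of the gene (RefSeq, GRCm38.p6), with each core in capitals and overlapping cores run together. Oas1a lies at chr5:120907526-120907775 (minus strand), Gbp3 at chr3:142559794-142560043 (plus), Bst2 at chr8:71537473-71537722 (minus), Oas3 at chr5:120777660-120777909 (minus) and Rsad2 at chr12:26456453-26456702 (minus).
Oas1a: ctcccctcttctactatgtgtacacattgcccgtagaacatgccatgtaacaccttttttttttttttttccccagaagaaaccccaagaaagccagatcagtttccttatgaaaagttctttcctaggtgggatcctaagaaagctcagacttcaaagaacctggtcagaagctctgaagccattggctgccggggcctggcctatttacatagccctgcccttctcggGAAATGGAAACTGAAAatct
Gbp3: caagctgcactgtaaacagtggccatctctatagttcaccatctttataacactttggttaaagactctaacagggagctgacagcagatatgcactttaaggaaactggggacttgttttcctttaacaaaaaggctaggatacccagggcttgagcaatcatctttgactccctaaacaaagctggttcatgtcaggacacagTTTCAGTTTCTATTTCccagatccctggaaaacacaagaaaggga
Bst2: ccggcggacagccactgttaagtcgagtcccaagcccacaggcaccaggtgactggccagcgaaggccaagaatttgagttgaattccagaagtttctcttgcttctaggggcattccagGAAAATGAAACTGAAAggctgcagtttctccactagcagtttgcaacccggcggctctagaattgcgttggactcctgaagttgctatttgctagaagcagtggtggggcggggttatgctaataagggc
Oas3: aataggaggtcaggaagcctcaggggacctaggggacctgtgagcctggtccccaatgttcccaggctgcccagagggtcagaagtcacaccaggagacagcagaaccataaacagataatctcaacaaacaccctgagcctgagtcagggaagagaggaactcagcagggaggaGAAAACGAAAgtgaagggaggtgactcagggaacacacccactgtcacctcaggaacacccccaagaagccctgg
Rsad2: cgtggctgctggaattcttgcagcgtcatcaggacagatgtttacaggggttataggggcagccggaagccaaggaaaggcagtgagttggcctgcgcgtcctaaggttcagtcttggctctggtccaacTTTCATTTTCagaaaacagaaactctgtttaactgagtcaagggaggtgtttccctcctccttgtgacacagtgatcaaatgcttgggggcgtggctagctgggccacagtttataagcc
The overlapping cores of Oas1a began 20 and 14 bases before the start, those of Gbp3 45 and 39 bases, and those of Bst2 130 and 124 bases before it. A single core began 75 bases before the start of Oas3 and 120 bases before that of Rsad2. A match of letters is a description and shows no bound factor.

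In WT IMP against WT naive cells, 7 of the 39 genes rose and 1 fell. The test was limma with Benjamini-Hochberg adjustment over all genes at an adjusted p under 0.05. Its p-values weigh a difference against the spread between these arrays, estimated jointly over all groups. Over all genes 8.2% passed, with 5.41% higher and 2.79% lower, so the share of members that rose (7 of 39) lay above the share of all genes that did. The genes that rose were Mx1, Gbp3, Oas1a, Bst2, Oas3, Ifih1 and Rsad2, and Ifit2 fell. The median difference of the 39 members was 0.23, against -0.02 over all genes, and 13 members lay below 0, against 54.5% of all genes. RNA of sorted cells does not tell more cells of a type from more RNA per cell, here and in all comparisons that follow. The values of other cell types' markers moved with these differences, as given above, and their part in them was not tested.

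Mx1, a gene of the dynamin-like GTPase family, stood at 2.87 and 3.06 in WT IMP arrays, against -0.22, 0.0019 and 0.22 in WT naive arrays. Both WT IMP arrays lay far above all WT naive arrays. The difference was 2.96 ± 0.58 (SE, n = 2 and 3), or 7.79-fold, with an adjusted p of 0.00803 from limma. Without WT IMP replicate 1 it was 3.06 with an adjusted p of 0.0652, and without replicate 2 it was 2.87 with an adjusted p of 0.0688 (limma), each from a single remaining array assumed to vary like the other groups.

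Gbp3, a guanylate-binding protein of the defence against intracellular microbes, was at 1.84 and 2.17 in WT IMP, against 0.10, 0.06 and -0.16 in WT naive. Oas1a, a synthase of the oligoadenylates that switch on the RNA-cleaving enzyme RNase L, was at 1.78 and 1.74 in WT IMP, against 0.19, -0.05 and -0.14 in WT naive. For neither gene did the groups overlap. Gbp3 rose by 2.01 ± 0.27 (4.01-fold, adjusted p = 0.000591, limma) and Oas1a by 1.76 ± 0.24 (3.38-fold, adjusted p = 0.000766, limma). Both passed under every alternative run, including each left-out array.

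Bst2 encodes tetherin, which holds budding viruses at the cell surface and is also a standing surface marker of mouse plasmacytoid dendritic cells. It was at 1.43 and 1.64 in WT IMP, against -0.14, 0.31 and -0.18 in WT naive, without overlap, and rose by 1.53 ± 0.38 (adjusted p = 0.0288, limma). Oas3, a further oligoadenylate synthetase, was at 1.66 and 1.02 in WT IMP, against -0.30, 0.78 and -0.49 in WT naive, where WT naive replicate 2 came close to the lower WT IMP array. It rose by 1.34 ± 0.35 with an adjusted p of 0.0400 (limma). Leaving out WT IMP replicate 1 or 2, or WT naive replicate 1 or 3, ended the call of both genes, with adjusted p-values of 0.0851 to 0.170 for Bst2 and 0.0659 to 0.388 for Oas3 (limma). For Oas3 it ended also when any 1 of the MW naive arrays was left out (0.0561 to 0.0613, limma), since the groups share 1 estimate of the spread.

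Ifih1 encodes MDA5, a cytosolic sensor of long double-stranded RNA. It was at 1.19 and 1.24 in WT IMP, against 0.13, -0.25 and 0.11 in WT naive, and rose by 1.21 ± 0.21 (adjusted p = 0.00327, limma). Rsad2 encodes viperin, which makes a chain-terminating nucleotide, and was at 0.95 and 1.08 in WT IMP, against -0.29, 0.05 and 0.24 in WT naive. The groups did not overlap for these genes either. Rsad2 rose by 1.01 ± 0.22 (adjusted p = 0.0163, limma). Its adjusted p was 0.0952 without WT IMP replicate 1, 0.119 without WT IMP replicate 2 and 0.0607 without WT naive replicate 1 (limma). Across its 3 probe sets the difference between the groups was 0.07 to 1.18.

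Ifit2 moved the other way. It encodes a protein that binds viral RNA and restrains its translation, and it was at -0.78 and -0.67 in WT IMP, against -0.05, -0.10 and 0.15 in WT naive. The groups did not overlap, and Ifit2 fell by 0.73 ± 0.14 on the log2 scale (adjusted p = 0.00589, limma). Without WT IMP replicate 1 its difference was -0.67 with an adjusted p of 0.0817 (limma).

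Leaving out WT IMP replicate 1 left 3 members past the test, leaving out WT IMP replicate 2 left 4, and leaving out WT naive replicate 1 left 5. With the 4 arrays of high poly-A controls removed, which leaves WT IMP a single array, 4 members passed, and the calls of Ifih1 (adjusted p = 0.0721), Ifit2 (0.243), Oas3 (0.660) and Rsad2 (0.166, limma) ended. With those controls as a block 8 members passed, among which Isg20 (adjusted p = 0.0499, limma) took the place of Oas3 (0.0564). The call of Oas3 ended also in a fit of WT IMP and WT naive alone (0.0670, limma), and that of Rsad2 in the probe set table (0.0824). Arrays did not overlap for 18 members that were higher in WT IMP, against 19% of all genes, and for 5 that were lower, against 21.9% of all genes.

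**Figure D2:**
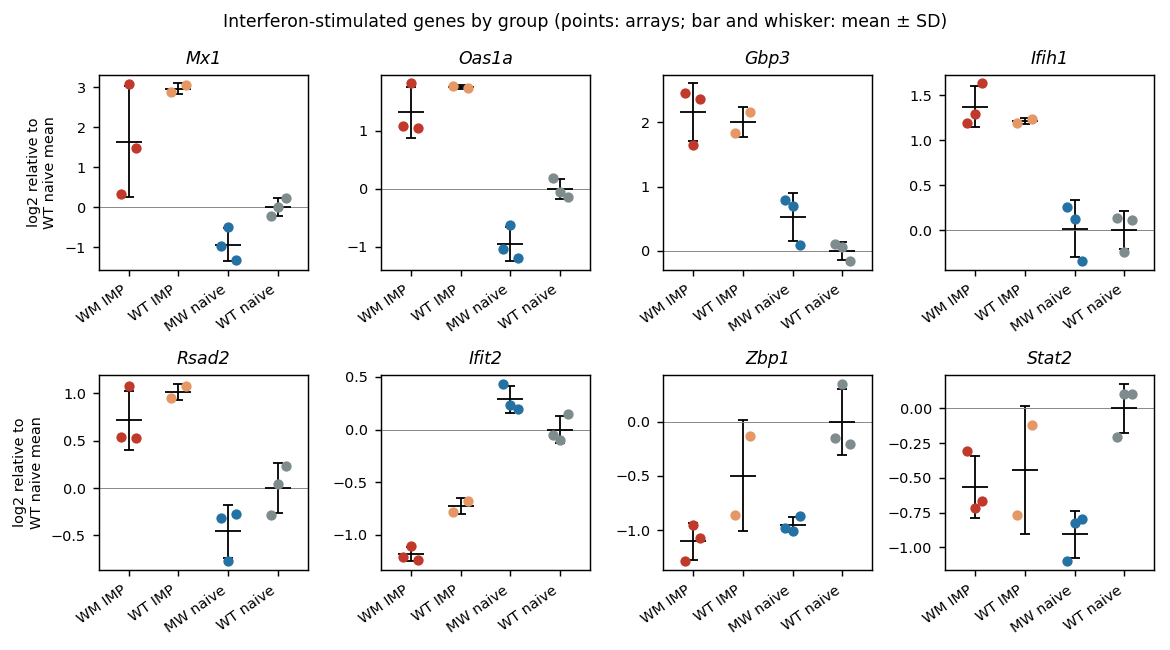
Log2 value relative to the WT naive mean (vertical axis, a separate scale per gene) of 8 interferon-stimulated genes in WM IMP, WT IMP, MW naive and WT naive cells. Points are arrays, horizontal bars means and whiskers SD; Mx1 in WM IMP ranges from 0.33 to 3.09, while Ifit2 is below 0 in all 5 IMP arrays.

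In the chimeras, WM IMP against MW naive cells, 9 of the 39 genes rose and 3 fell. Over all genes 15.8% passed, with 7.06% higher and 8.78% lower, so the share of members that fell (3 of 39) was close to that of all genes. Mx1, Oas1a, Gbp3, Ifih1, Ifi44, Rsad2, Isg20, Dhx58 and Oas2 rose, and Ifit2, Oasl1 and Ddx58 fell. The median of the 39 was 0.09, against -0.05 over all genes, and 18 members lay below 0, against 57.1% of all genes. Gbp3, Ifih1, Ifit2, Mx1, Oas1a and Rsad2 passed in the same direction in both comparisons of IMP with naive cells, which share no arrays but 1 estimate of the spread. The chimera groups differ in marrow and host as well as in phenotype, so that these cannot be told apart here.

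Mx1 was at 0.33, 3.09 and 1.49 in WM IMP arrays, against -0.97, -0.50 and -1.33 in MW naive arrays. The groups did not overlap, although the WM IMP arrays spanned 2.76. The difference was 2.57 ± 0.52 (SE, n = 3 and 3; 5.94-fold) with an adjusted p of 0.00589 (limma). Without the arrays with high poly-A controls it was 1.65 with an adjusted p of 0.0516 (limma).

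Oas1a was at 1.09, 1.82 and 1.05 in WM IMP, against -1.03, -0.62 and -1.20 in MW naive. Gbp3 was at 2.46, 1.64 and 2.37 in WM IMP, against 0.79, 0.70 and 0.10 in MW naive. Ifih1 was at 1.19, 1.29 and 1.63 in WM IMP, against 0.26, 0.13 and -0.35 in MW naive. All 3 genes were higher in every WM IMP array than in any MW naive array. Oas1a rose by 2.27 ± 0.22 (4.82-fold, adjusted p = 2.47e-05, limma), Gbp3 by 1.63 ± 0.24 (adjusted p = 0.000683) and Ifih1 by 1.36 ± 0.18 (adjusted p = 0.000415). These calls held under every alternative run.

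Ifit2 was at -1.21, -1.11 and -1.23 in WM IMP, against 0.43, 0.23 and 0.20 in MW naive. The groups stood far apart, and Ifit2 fell by 1.47 ± 0.12 on the log2 scale (2.77-fold lower, adjusted p = 7.72e-06, limma), which held under every alternative run. Oasl1, an oligoadenylate synthetase-like protein known in mice to restrain the translation of Irf7, was at -1.09, -0.85 and -1.04 in WM IMP, against -0.39, -0.73 and -0.28 in MW naive. It fell by 0.53 ± 0.15 (adjusted p = 0.0314, limma). Ddx58, which encodes the RNA sensor RIG-I, was at -0.64, -0.63 and -0.85 in WM IMP, against -0.17, -0.27 and -0.14 in MW naive. It fell by 0.52 ± 0.12 (adjusted p = 0.0132, limma), and 1 of its 3 probe sets gave a difference of 0.0039. Neither gene's groups overlapped. The call of Oasl1 was lost without MW naive replicate 1 or 3, WM IMP replicate 1 or 3 or WT naive replicate 1, with adjusted p-values of 0.0519 to 0.107 (limma).

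The other 5 genes that rose were smaller or more variable. Ifi44, a cytosolic protein that interferon induces, was at 0.07, 1.23 and -0.47 in WM IMP, against -0.72, -1.13 and -1.29 in MW naive, a difference of 1.32 ± 0.33 (adjusted p = 0.0204, limma). Isg20, an exonuclease of single-stranded RNA, was at 0.49, 0.50 and 0.45 in WM IMP, against -0.35, -0.46 and -1.03 in MW naive, a difference of 1.09 ± 0.19 (adjusted p = 0.00205, limma) that passed under every alternative run. Rsad2 was at 0.54, 1.08 and 0.52 in WM IMP, against -0.32, -0.77 and -0.27 in MW naive, a difference of 1.17 ± 0.20 (adjusted p = 0.00203, limma). In all of these genes the WM IMP arrays lay above the MW naive arrays. Dhx58, which encodes the RNA sensor LGP2, was at 0.53, 0.56 and -0.42 in WM IMP, against -0.42, -0.64 and -0.88 in MW naive, where the lowest WM IMP and the highest MW naive array were almost equal. Oas2 was at 0.02, 0.21 and 0.10 in WM IMP, against -0.57, -0.51 and -0.62 in MW naive, so that WM IMP lay close to the WT naive mean and MW naive below it. It rose by 0.68 ± 0.14 (adjusted p = 0.00769, limma). Dhx58 rose by 0.87 ± 0.23 (adjusted p = 0.0263, limma). Its call ended without MW naive replicate 2 or 3 or WM IMP replicate 1 or 2 (0.0708 to 0.0918, limma), and that of Ifi44 without MW naive replicate 2 or 3 (0.0682 and 0.0712). Arrays did not overlap for 13 members that were higher in WM IMP, against 11.6% of all genes, and for 5 that were lower, against 17.5%. Among the arrays without high poly-A controls 7 members passed in the chimeras. Besides Mx1, the calls of Ddx58, Dhx58, Ifi44, Oas2 and Oasl1 ended there (adjusted p from 0.109 to 0.338, limma), and Eif2ak2 passed (0.0120). With those controls as a block 14 members passed. A fit of WM IMP and MW naive alone ended the calls of Ddx58, Dhx58, Ifi44 and Oasl1 (0.0592 to 0.108), array weights those of Dhx58 and Oasl1 (0.0523 and 0.111), and the probe set table those of Ddx58 and Rsad2 (0.106 and 0.0549, limma).

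**Figure D3:**
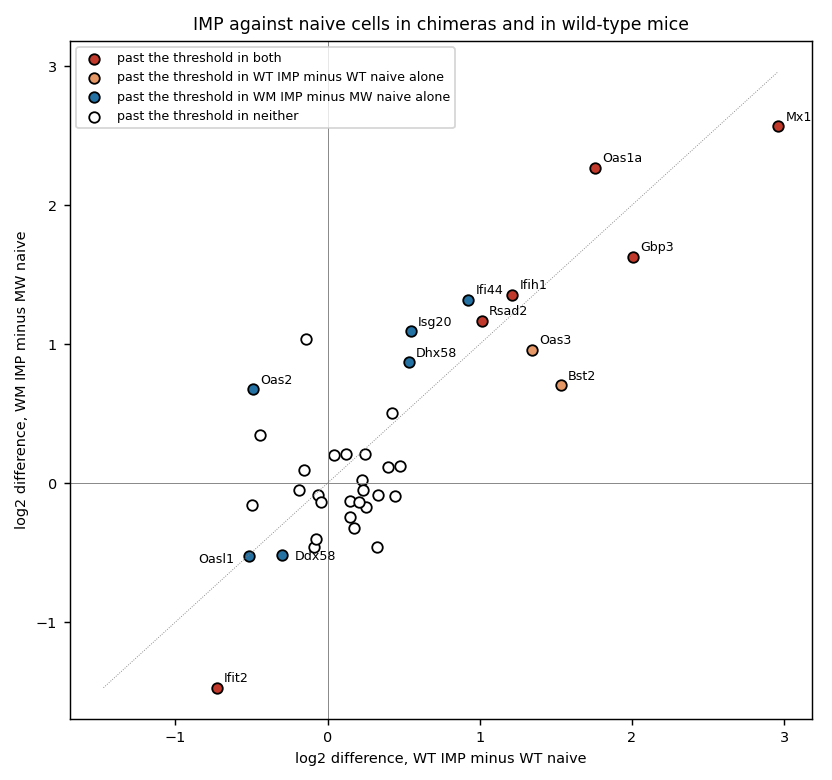
Log2 difference of each of the 39 genes between WM IMP and MW naive (vertical axis) and between WT IMP and WT naive (horizontal axis), coloured by whether it passed an adjusted p under 0.05 in both, in 1 or in neither comparison. The dotted line marks equal differences; Mx1, Oas1a, Gbp3, Ifih1 and Rsad2 lie at the upper right, Ifit2 at the lower left and Oas2 at the upper left.

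In MW naive against WT naive cells, 30 of the 39 genes lay below 0, against 49.1% of all genes, and their median was -0.40, against 0.00 over all genes. Oas1a, Zbp1 and Stat2 fell, and no member rose, where 3.08% of all genes passed (1.79% lower, 1.28% higher). At an unadjusted p under 0.05 there were 20 members, against 3376 of the 20400 genes. The MW naive arrays did not overlap with the WT naive arrays and were lower for 23 members, against 14% of all genes, and higher for 4, against 12.2% of all genes. The mean over the 39 was -0.32, -0.40 and -0.45 in MW naive arrays, against -0.09, 0.11 and -0.02 in WT naive arrays.

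Zbp1, a sensor of nucleic acid in the Z form, was at -0.98, -1.0 and -0.87 in MW naive, against -0.15, 0.35 and -0.20 in WT naive. Stat2, the subunit that gives the trimer its activating domain, was at -1.10, -0.83 and -0.79 in MW naive, against -0.20, 0.10 and 0.10 in WT naive. Oas1a was at -1.03, -0.62 and -1.20 in MW naive, against 0.19, -0.05 and -0.14 in WT naive. None of the groups overlapped. Zbp1 fell by 0.95 ± 0.20 (adjusted p = 0.0324), Stat2 by 0.91 ± 0.19 (0.0296) and Oas1a by 0.95 ± 0.22 (0.0417), all from limma with 3 against 3 arrays. The 2 probe sets of Zbp1 gave differences of -1.89 and -0.29 between the groups and those of Stat2 gave -1.03 and -0.25. Leaving out any MW naive or WT naive array changed the count of 3 to 0, except for MW naive replicate 3, without which Stat2 alone passed. Arrays of the IMP groups bear on it through the shared spread. Without WM IMP replicate 1, 2 or 3 the count was 7 (6 lower), 5 and 5, and without either WT IMP array it was 4, with Oas1a at an adjusted p of 0.0599 (limma).

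A sign of RNA quality moved with this comparison and differed between arrays of the IMP groups. The 5′ minus 3′ difference of the Gapdh control probe sets was -4.22, -3.50 and -1.38 in MW naive, against 0.02, -0.42 and 0.41 in WT naive, and it was 0.56, -2.71 and -1.69 in WM IMP and -4.23 and -0.27 in WT IMP. With this difference as a covariate no member passed, while 31 of the 39 lay below 0, with Oas1a at -1.22, Zbp1 at -0.81 and Stat2 at -0.51 (adjusted p from 0.136 to 0.357, limma). The same covariate ended the calls of Bst2 (adjusted p = 0.143), Oas3 (0.195) and Rsad2 (0.0648) in WT IMP against WT naive, where Oas2 fell (adjusted p = 0.0327), and of Dhx58 (0.0616) and Oasl1 (0.0593) in WM IMP against MW naive, where Oas3 rose (0.0447, limma). Its part in the results was otherwise not tested. Hybridization controls were higher in every chimera array than in any array of unmanipulated mice. Their mean was 1.05, 1.10 and 1.48 in MW naive and 3.33, 2.13 and 1.69 in WM IMP. It was -0.11, 0.61 and -0.50 in WT naive and 0.49 and 0.46 in WT IMP. These controls thus moved with MW naive against WT naive and with WM IMP against WT IMP, and their part was not tested. Marker lists of several cell types were also lower in MW naive arrays than in WT naive arrays, without overlap of the array means. Monocyte and macrophage markers averaged -0.97 to -0.58 in MW naive, against -0.17 to 0.23 in WT naive, and 2 of 9 fell. CD8 T cell markers averaged -1.08 to -0.72 in MW naive, against -0.10 to 0.08 in WT naive, and NK cell markers -0.65 to -0.58 in MW naive, against -0.21 to 0.22 in WT naive, and none passed. CD4 T cell markers averaged -0.64 to -0.39 in MW naive, against -0.12 to 0.18 in WT naive, and 1 of 8 fell. Markers of plasmacytoid dendritic cells averaged -0.34 to -0.25 in MW naive, against -0.22 to 0.28 in WT naive, also without overlap. Of these 9 markers 8 lay below 0, and none passed. The part of these markers was not tested. Without the arrays with high poly-A controls no member passed and 31 lay below 0.

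All 5 oligoadenylate synthetase genes lay below 0 in MW naive against WT naive. Besides Oas1a, Oas2 was at -0.56 ± 0.14 (adjusted p = 0.0586, limma), Oas3 at -1.02, Oasl1 at -0.47 and Oasl2 at -1.01. Oasl2 was nearly identical in the MW naive arrays, at -1.01, -1.0 and -1.02, against 0.10, -0.09 and -0.01 in WT naive, but its adjusted p was 0.456 with the spread estimated over all groups, among which its WM IMP arrays ranged from -2.97 to 0.16. In a fit of MW naive and WT naive alone it passed with an adjusted p of 0.00409, as did 10 other members, all of them lower in MW naive, where 3.36% of all genes passed and were lower. With array weights 13 members fell and 3 rose, where 6.83% of all genes fell. Among other antiviral genes Ifi44 was at -1.05, Xaf1, a cofactor of apoptosis, at -0.72 and Isg20 at -0.61, and of the genes named for tetratricopeptide repeats Ifit1 was at -0.86 and Ifit3 at -1.04, none of which passed. Members above 0 were Gbp3 (0.53), Tap1 (0.43), Gbp2 (0.42), Ifi35 (0.29), Ifit2 (0.29), Trim25 (0.11), Irf1 (0.08), Samhd1 (0.07) and Ifih1 (0.01). The factors Irf7 and Irf9 were at -0.26 and -0.06.

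**Figure D4:**
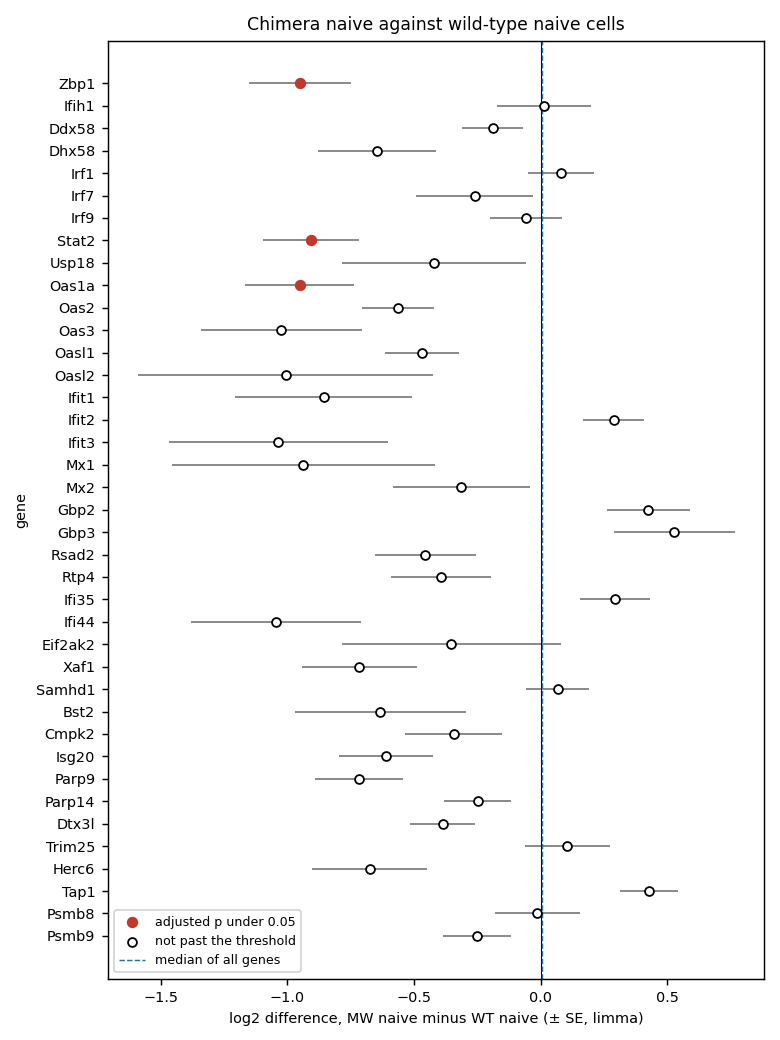
Log2 difference between MW naive and WT naive cells (horizontal axis, points, with limma's SE as bars) of the 39 genes, in the order of their roles. Red points passed an adjusted p under 0.05, and the dashed line is the median of all genes; 30 points lie left of 0 and 9 lie right of it.

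In WM IMP against WT IMP cells none of the 39 genes passed limma's test, where 1.8% of all genes did (0.721% higher and 1.08% lower), and the smallest adjusted p was 0.0724 for Herc6 and Oas3. At an unadjusted p under 0.05 there were 18 members, against 3324 of the 20400 genes. WM IMP was lower in 34 members, against 55% of all genes, with a median of -0.36, against -0.04 over all genes. Without overlap of arrays 17 members were lower in WM IMP, against 19.3% of all genes, and 1, Oas2, was higher, against 11.6% of all genes. Every transcription or feedback factor (Irf1, Irf7, Irf9, Stat2 and Usp18), and each of the 5 enzymes of ubiquitin, ISG15 and ADP-ribose conjugation, was below 0.

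The WM IMP arrays differed among themselves. WM IMP replicate 2 was the highest of the 3 in 29 of the 39 members, against 30% of all genes, while replicate 1 was highest in 5, against 37.6%, and replicate 3 in 5, against 32.4%. The range over the 3 arrays exceeded 1 in 9 members (Oasl2, Mx1, Ifit3, Usp18, Eif2ak2, Ifi44, Ifit1, Bst2 and Mx2), against 12.1% of all genes, and in no member in MW naive. Oasl2 was at -2.97, 0.16 and -0.48 in WM IMP, against 0.36 and 0.53 in WT IMP. Bst2 was at -0.46, 1.09 and -0.41 in WM IMP, against 1.43 and 1.64 in WT IMP. Ifit1, which binds RNA that lacks the methylation of a host cap, was at -1.47, 0.05 and -1.55 in WM IMP, against 0.12 and 0.18 in WT IMP. In each of these genes replicate 2 lay near WT IMP and the other two lay below. Usp18, the protease that removes ISG15 and damps the receptor, was at -1.82, 0.10 and -0.52 in WM IMP, against 0.22 and 0.13 in WT IMP. Ifit3 (-0.10, -0.90 and -2.37 in WM IMP, against -0.29 and 0.17 in WT IMP) and Eif2ak2, the kinase PKR that halts translation (1.48, -0.36 and 0.92 in WM IMP, against -0.71 and 0.42 in WT IMP), had another order. Across the 3 probe sets of Eif2ak2 the difference of WM IMP from WT IMP was -1.08 to 1.37, with 1 above 0 and 2 below.

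Without WM IMP replicate 2, 8 members fell in WM IMP against WT IMP, where 2.78% of all genes fell. They were Mx1 (-2.06), Bst2 (-1.97), Ifit1 (-1.66), Oas3 (-1.63), Herc6 (-1.17), Ifi44 (-1.13), Xaf1 (-1.0) and Cmpk2 (-0.86), with adjusted p-values of 0.000942 to 0.0393 (limma, 2 and 2 arrays). With all arrays their adjusted p-values were 0.0724 to 0.432. Replicate 2 was the highest WM IMP array for each of these genes, so leaving it out lowers their WM IMP mean in any case. The 8 calls follow in part from that order and are no separate result. Without WT naive replicate 2, Oas3 alone passed (-1.41, adjusted p = 0.0328, limma), and leaving out any other array left 0.

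Most markers of plasmacytoid dendritic cells were also highest in WM IMP replicate 2. Siglech, a surface lectin of these cells, was at 2.27, 4.92 and 3.11 in WM IMP, against 5.29 and 5.37 in WT IMP. Klk1 was at 1.25, 4.45 and 2.49 in WM IMP, against 6.53 and 5.90 in WT IMP. The mean of the 9 markers was 2.12, 3.20 and 2.09 in WM IMP, against 3.55 and 3.37 in WT IMP, and that of the 39 members was -0.23, 0.19 and -0.21 in WM IMP, against 0.28 and 0.45 in WT IMP. Replicate 2 was thus highest of the WM IMP arrays in both lists, and it is also the WM IMP array with high poly-A controls. Not all markers followed, since Plac8 was at 3.52, 3.54 and 3.52 and Spib at 2.65, 2.14 and 0.72 in WM IMP. The means of monocyte and macrophage markers (1.18, 1.48 and 1.42 in WM IMP) and of CD4 T cell markers (-0.70, -0.36 and -0.45) were also highest in replicate 2. B cell markers had another order, with a mean of 2.80, 0.76 and 0.89 in WM IMP, and so had conventional dendritic cell markers (1.56, 2.68 and 2.79). Markers of CD8 T cells, NK cells, neutrophils and erythroid cells were not highest in replicate 2 either. The part of other cells and of the labelling in the spread was not tested.

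**Figure D5:**
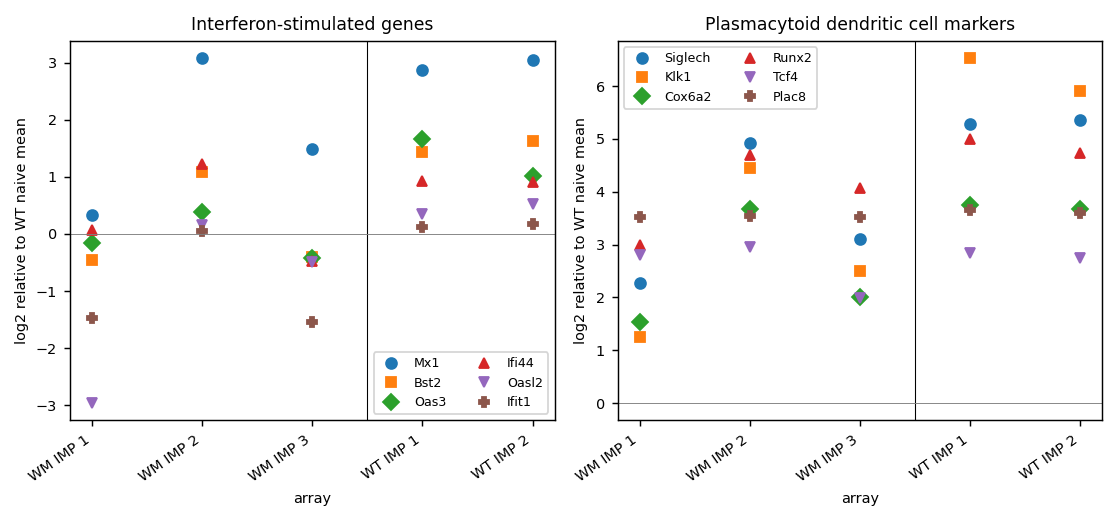
Log2 value relative to the WT naive mean (vertical axes) of 6 interferon-stimulated genes (left) and 6 markers of plasmacytoid dendritic cells (right) in each WM IMP and WT IMP array (horizontal axes), genes picked after their values were seen. On the left, WM IMP 2 is the highest of the WM IMP arrays for each gene shown; on the right it is so clearly for Siglech, Klk1, Cox6a2 and Runx2, while Plac8 stays at 3.52 to 3.66.

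Whether the difference of IMP from naive cells was itself different in chimeras was tested as (WM IMP minus MW naive) minus (WT IMP minus WT naive). Since WM IMP and MW naive come from opposite chimeras, marrow and host enter this contrast along with phenotype and cannot be told apart from it. None of the 39 genes passed, where 0.118% of all genes did (0.0735% higher and 0.0441% lower), and 5 members and 1675 of all genes had an unadjusted p under 0.05 (limma). The smallest adjusted p was that of Oas2, at 1.17 ± 0.21 (adjusted p = 0.0765, limma). Oas2 was at 0.02, 0.21 and 0.10 in WM IMP and -0.57, -0.51 and -0.62 in MW naive, against -0.27 and -0.72 in WT IMP and 0.0012, 0.16 and -0.16 in WT naive, so it was higher in IMP than in naive cells in the chimeras and lower in IMP than in naive cells in unmanipulated mice. Next were Ifit2 (-0.75 ± 0.18, adjusted p = 0.217), Gbp2 (-0.79 ± 0.24, adjusted p = 0.379) and Stat2 (0.79 ± 0.28, adjusted p = 0.468). Gbp2, a relative of Gbp3, was at -0.03, -0.17 and 0.09 in WM IMP and 0.73, 0.45 and 0.10 in MW naive, against 0.18 and 0.47 in WT IMP and -0.04, -0.03 and 0.06 in WT naive. Stat2 was at -0.31, -0.71 and -0.67 in WM IMP, and at -0.77 and -0.12 in WT IMP. The differences in Mx1 (-0.39), Gbp3 (-0.38), Ifih1 (0.14), Rsad2 (0.16) and Oas1a (0.51) had adjusted p-values of 0.752 to 0.930 (limma).

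Of the 39 genes, 16 passed in at least 1 comparison and 23 in none. The 23 include the factors Irf1, Irf7, Irf9 and Usp18. Irf7, the factor that amplifies type I interferon production, was at -0.08, 0.27 and -0.60 in WM IMP, 0.39 and 0.57 in WT IMP, -0.42, -0.26 and -0.10 in MW naive and -0.13, 0.42 and -0.29 in WT naive. Both WT IMP arrays lay above all WM IMP and MW naive arrays, and WT naive overlapped with each group. Irf9 ranged from -0.33 to 0.33 over all 11 arrays and Irf1, which interferon gamma induces strongly, from -0.16 to 0.32. The class I antigen processing genes were close to 0 as well. Tap1, which pumps peptides into the endoplasmic reticulum, was at 0.21 to 0.42 in WM IMP, 0.28 and 0.38 in WT IMP, 0.36 to 0.53 in MW naive and -0.07 to 0.08 in WT naive. In these gene values WT naive was the lowest of the groups without overlap. Across the 4 probe sets of Tap1 the difference of MW naive from WT naive was -0.11 to 0.31, with 2 above 0 and 2 below. The immunoproteasome subunits Psmb8 and Psmb9 stayed between -0.37 and 0.32 in all arrays.

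None of the 5 conjugation enzymes passed in any comparison. Herc6, the mouse ligase for ISG15, was at -1.20, -0.73 and -1.30 in WM IMP, -0.32 and 0.16 in WT IMP, -0.23, -0.75 and -1.04 in MW naive and 0.12, -0.15 and 0.03 in WT naive. Both chimera groups were therefore below WT naive, and its difference between WM IMP and WT IMP was -1.0 (adjusted p = 0.0724, limma). Parp9 was at -0.65, -0.50 and -0.73 in WM IMP, -0.45 and 0.14 in WT IMP, -0.71, -0.66 and -0.79 in MW naive and -0.24, 0.27 and -0.03 in WT naive. Its partner Dtx3l, which shares a bidirectional promoter with it, was at -0.32 to -0.58 in WM IMP, -0.35 and -0.02 in WT IMP, -0.35 to -0.44 in MW naive and -0.08 to 0.07 in WT naive. For these partners too the MW naive arrays lay below all WT naive arrays. Parp14 ranged from -0.45 to 0.23 over all arrays, and Trim25, a ligase that activates RIG-I, from -0.78 to 0.19. Samhd1, which depletes the nucleotides that retroviruses need, stayed within -0.17 to 0.14, and Ifi35 within -0.11 to 0.55. Single probe sets moved more than these gene values. Across the 5 of Samhd1 the difference of WM IMP from WT IMP was -0.31 to 1.64. Across the 3 of Trim25 the difference of MW naive from WT naive was -0.82 to 0.17. Rtp4, Cmpk2, Xaf1 and Mx2 complete the list, with group means between -0.72 and 0.42 and without a call.

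Genes of the interferon pathway outside the 39 were taken from a list of 22 ligands, receptors and signalling components. In WT IMP against WT naive 8 rose and 1 fell, and in WM IMP against MW naive 8 rose and 2 fell, against 5.41% and 2.79% of all genes in unmanipulated mice and 7.06% and 8.78% in the chimeras. Ifng, the ligand of the gamma receptor, was at 3.03, 3.76 and 3.86 in WM IMP and 4.56 and 4.49 in WT IMP, against -0.08, -0.12 and -0.23 in MW naive and -0.02, 0.22 and -0.20 in WT naive, and rose in both comparisons, by 3.70 in the chimeras and 4.52 in unmanipulated mice (adjusted p = 3.21e-07 and 1.17e-06, limma). The type I ligands Ifnb1 and Ifna4 were within -0.42 and 0.70 in all arrays. The receptor chain Ifnar2 rose by 0.80 in WM IMP against MW naive and by 1.08 in WT IMP against WT naive, Ifngr1 by 0.78 and 0.65, and the kinases Jak2 by 0.78 and 0.88 and Tyk2 by 0.59 and 0.62. Jak1 fell by 1.02 and 0.59 on the log2 scale in the same comparisons. The factors Irf5 (2.27 and 1.79) and Irf8 (2.60 and 3.87) and the endosomal RNA sensor Tlr7 (1.18 and 1.02), all of which B cells and dendritic cells express, rose in both. Irf8 fell by 1.40 on the log2 scale in WM IMP against WT IMP (adjusted p = 0.0170, limma). Socs3, an inhibitor of cytokine signalling, rose by 1.04 in MW naive against WT naive and fell by 0.94 on the log2 scale in WM IMP against MW naive.

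A further list of 52 interferon-induced genes had 39 measured. Of these, 4 rose and 1 fell in WT IMP against WT naive, 6 rose and 4 fell in WM IMP against MW naive, 1 rose and 2 fell in MW naive against WT naive, and 1 fell in WM IMP against WT IMP. Over all genes 5.41% rose and 2.79% fell in the first of these comparisons, 7.06% and 8.78% in the chimeras, and 1.28% and 1.79% in MW naive against WT naive, so the 4 of 39 that fell in the chimeras lay near the share of all genes. Cxcl10, a chemokine for activated T cells, rose by 2.69 in both comparisons of IMP with naive cells, and Ciita, the activator of MHC class II genes, by 2.81 in the chimeras and 1.87 in unmanipulated mice. Tor3a and Trafd1 rose in both as well, by 1.32 and 1.25 in the chimeras and by 0.97 and 1.04 in unmanipulated mice. Slfn1, a gene of the Schlafen family, fell in both, by 1.76 and 1.33 on the log2 scale. In MW naive against WT naive, Lgals3bp (-1.05) and Tor3a (-0.76) fell and Igtp (0.50), a GTPase induced by interferon gamma, rose. Lgals3bp also fell in WM IMP against WT IMP (-1.22). The median of the 39 further genes was -0.15 in MW naive against WT naive, where 25 of them lay below 0, against 49.1% of all genes.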

How the data were processed

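RNA of 11 sorted CD4 T cell samples was measured on oligonucleotide arrays from 30 ng of total RNA each, per the labels' protocols. The authors deposited log2 values of genes, named as quantile normalized and set to a mean of 0 over the WT naive arrays per the file headers, and a probe set table made with RMA, per the submitters' processing notes. How probe sets were joined into genes was not given in the sources used here. Control rows (55) and rows without a symbol (5633) or with several (1711) were left out. Groups came from the sample titles. Some genes are not reported here.

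Group means of the 4 groups were estimated jointly from the 11 arrays (lmFit and eBayes of limma 3.58.1, run in R 4.3.3), with Benjamini-Hochberg adjustment over 20400 genes within each of 5 contrasts and calls at an adjusted p under 0.05. The fit was tested on simulated data. Tables, motif counts and figures were made with Python 3.11.15, numpy 2.4.6, pandas 2.3.3 and matplotlib 3.10.9. The number of arrays limits the precision. Current symbols came from RefSeq and changed 2054 of 17875 matched symbols.

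The 39 members, the other gene lists, the markers and the tests were chosen with earlier results of these data known. Values in every array were to be given for up to 4 called members with the greatest difference in each direction per contrast and up to 4 with the smallest adjusted p in the interaction. Other members printed that way were chosen after their values were seen. Of the other lists, called pathway genes and up to 4 called further genes per contrast were named. Promoters were those of up to 5 called members with a core, narrowed after the values were seen to cores before the start. The alternatives were the RMA table, the row of greatest variance, a replicate block, a fit of 2 groups, array weights, array centring, an adjusted p under 0.01, an absolute log2 difference of at least 1, poly-A controls as a block or left out, robust eBayes and each array left out. The Gapdh covariate was added after the data were seen.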

Additional observations from a re-analysis of the deposited data

How the results depend on the processing

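No value of a called member changed sign under any setting, and of 529 values of called members 429 kept their call and 100 lost it. Many settings could not change a sign. Stricter thresholds, robust eBayes, a fit of the compared groups alone or leaving out an array of another group keep the difference itself as it was. The calls of Gbp3 and Oas1a in both comparisons of IMP with naive cells, and of Ifih1, Ifit2 and Isg20 in WM IMP against MW naive, were kept under each setting run. In WT IMP against WT naive the 8 calls became 5 at an adjusted p under 0.01, 14 with array weights and 4 without the arrays with high poly-A controls, and 3 to 9 with 1 array left out. The members below 0 there were 8 without the high poly-A arrays and 8 to 14 with 1 array left out. In WM IMP against MW naive the 12 calls became 7 without the high poly-A arrays and 10 to 14 with 1 array left out. In MW naive against WT naive the 3 calls became 0 with the Gapdh covariate, at an adjusted p under 0.01, with an absolute log2 difference of at least 1 and without the high poly-A arrays, 5 in the RMA probe set table, 11 in a fit of these groups alone and 16 with array weights (13 fell, where 6.83% of all genes fell), and 0 to 7 with 1 array left out. The members below 0 stayed at 29 to 32 under all settings run, several of which keep the differences as they were. In WM IMP against WT IMP the count of 0 became 1 with the Gapdh covariate (Oas2) and 0 to 8 with 1 array left out. In the interaction it became 1 with array weights (Oas2) and 0 to 1 with 1 array left out (Bst2, without WM IMP replicate 2). For most settings, the poly-A and replicate blocks included, the share of all genes that passed is not given here. The changed counts are thus no result about the members alone. The cause of these changes was not tested, and neither was the part of the smaller number of arrays where some are left out.

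Same-numbered replicates are not shown to be paired. Over 15 pairs of same-numbered arrays of different groups, deviations from the group means correlated at -0.29 to 0.17, and 1 pair was over 0.1. With the replicate number as a block, 7 members passed in WT IMP against WT naive (6 rose), 11 in WM IMP against MW naive (9 rose), 3 in MW naive against WT naive and 0 in the other contrasts. The calls of Oas3 (adjusted p = 0.0791), Oasl1 (0.0636) and Stat2 (0.0557) ended with the block in these comparisons in turn, and Parp9 (0.0487, limma) was gained in MW naive against WT naive. The values hold no brightness, so distance from background is unknown for every gene.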

Other observations

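Probe sets of the same gene did not always move together in the RMA table. Of the 39 members 21 had 1 probe set and 18 had several. Among the 18, probe sets differed in sign for 7 members in WM IMP against MW naive, 12 in WT IMP against WT naive, 9 in MW naive against WT naive and 11 in WM IMP against WT IMP. Zbp1 is an example in WT IMP against WT naive, where its probe sets gave differences of -1.01 and 0.02. The median range of the 39 members over the arrays of a group was 0.57 in WM IMP, 0.20 in WT IMP, 0.32 in MW naive and 0.28 in WT naive, against 0.44, 0.15, 0.32 and 0.26 over all genes in the same order of groups.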
